A study of Mus musculus with 3 samples.

Results

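Chondrocytes are the cells that build and maintain cartilage. They secrete type II collagen with its partner collagens IX and XI, the large proteoglycan aggrecan and many smaller matrix proteins, under the transcription factor Sox9 and its relatives Sox5 and Sox6. In growth cartilage they pass from a resting state through division to hypertrophy, where they make type X collagen and the signal Indian hedgehog (Ihh). In the spine such cells are known from the cartilage endplate, the vertebral growth plate and the inner annulus fibrosus, which border the nucleus pulposus (NP), the soft core of the disc.

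The chondrocytes described here are 1067 of 26898 kept cell barcodes from 3 single-cell RNA libraries of untreated mouse intervertebral disc at postnatal day 30. All animals were shh-cre:R26R-tdTomato, in which Cre made under Shh control turns on the red reporter tdTomato in Shh-expressing cells and their descendants, and tdTomato-positive cells were enriched by sorting. Each library is a pool of litter-matched animals and a sequencing batch of its own, so pool and batch cannot be told apart, and the series holds no other genotype, age or treatment. Discs were cut out through the bony vertebral endplates and digested with collagenase. A kept barcode had at least 500 genes and at most 15% mitochondrial unique molecular identifiers (UMIs, the counted RNA molecules). A chondrocyte had a UMI of at least 3 of Col9a1, Matn3, Cnmd, Snorc and Col11a2, fewer than 2 of the NP genes Krt8, Krt18, Krt19 and T, no UMI of the leukocyte gene Ptprc, and not both 2 UMIs of Prg4 and 1 of Cytl1. The cells were thus chosen on measured values, and the levels of these genes are a description.

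Library 1 held 774 chondrocytes among 5732 kept barcodes, or 13.5% (95% exact Clopper-Pearson interval 12.6 to 14.4%). Library 2 held 240 of 10792, or 2.22% (1.95 to 2.52%). Library 3 held 53 of 10374, or 0.511% (0.383 to 0.668%). These intervals cover counting error only, and the mean share was 5.41% ± 7.06 (SD, n = 3 libraries), so the spread between libraries was wider than the mean. The part of sorting and of digestion in this spread was not tested. Median depth per chondrocyte was 9342.5, 11716 and 9207 UMIs in libraries 1, 2 and 3, so library 3 stands apart by cell number and not by depth.

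At the edge of the rule, 320 members had exactly 3 of the 5 genes, and 277 barcodes that met the other conditions had 2. Col2a1, which codes for type II collagen, stood at 12368 CPM (UMIs scaled to a total of 1000000 per sum) just inside, 924 CPM just outside and 48411 CPM in the 439 members with all 5 genes. Col1a1, the type I collagen of bone and fibrous tissue, stood at 25317, 63572 and 940.0 CPM in the same order. The rule thus borders on cells rich in Col1a1. Median depth was 4486.5 UMIs just inside, 13284 just outside and 14573 with all 5 genes.

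The cells carried cartilage genes that the rule did not use. Acan, the aggrecan gene, had a UMI in 99.1%, 98.8% and 96.2% of chondrocytes of libraries 1, 2 and 3, and Sox9 in 93.7%, 91.7% and 88.7%. In B lineage cells, which should lack both, Acan had a UMI in 7.20%, 2.84% and 0.768% and Sox9 in 5.48%, 1.51% and 0.384%. With each cell thinned to 2000 UMIs, the share with Sox9 was 75.2%, 69.1% and 55.8% of chondrocytes and 2.81%, 0.43% and 0.126% of B lineage cells, whose median depth was 4703, 7191 and 6755 UMIs. The 4 NP genes summed to 5.50, 3.55 and 0 CPM in chondrocytes, and Shh stood at 0.935, 0.645 and 0 CPM. The count tables list 0 features named tdTomato or Cre, so the reporter was not read here.

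Some members carried RNA of other cell types. By a rule chosen after seeing the data, 36, 24 and 8 members of libraries 1, 2 and 3 did so, 6.37% of all, and 32 of these 68 had B lineage genes. The highest Scrublet doublet scores fell on 7.75%, 22.1% and 32.1% of members against 5.95%, 9.41% and 8.83% of kept barcodes. The neutrophil gene S100a8 had a UMI in 98.3%, 90.0% and 94.3% of chondrocytes and 98.0%, 91.9% and 92.1% of B lineage cells, and after thinning in 65.0%, 40.8% and 57.7% and 79.7%, 64.0% and 69.1%. Of 24 barcodes that libraries 1 and 2 shared, 1 was a member in both libraries. None of the 29 and 224 that libraries 1 and 2 shared with library 3 was a member in both.

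The 250 bases before the start are printed for Matn3 and Col11a2, 2 genes of the rule, and for Col10a1, the type X collagen gene, because their levels differ between the groups of chondrocytes described below. They are RefSeq sequences (GRCm38.p6), 5′ to 3′ on the gene's strand, with TATAAA in capitals (searched on both strands as TATAAA or TTTATA).
Matn3 (chr12:8947679-8947928, plus strand): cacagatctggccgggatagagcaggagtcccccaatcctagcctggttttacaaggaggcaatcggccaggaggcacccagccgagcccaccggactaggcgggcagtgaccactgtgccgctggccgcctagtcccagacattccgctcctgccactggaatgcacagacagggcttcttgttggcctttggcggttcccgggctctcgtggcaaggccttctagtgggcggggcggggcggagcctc
Col11a2 (chr17:34038888-34039137, plus strand): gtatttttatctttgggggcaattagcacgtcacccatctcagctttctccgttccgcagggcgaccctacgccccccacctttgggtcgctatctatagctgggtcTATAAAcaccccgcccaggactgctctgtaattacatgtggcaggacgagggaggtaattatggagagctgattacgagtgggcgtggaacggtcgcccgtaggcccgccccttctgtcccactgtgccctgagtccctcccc
Col10a1 (chr10:34389731-34389980, plus strand): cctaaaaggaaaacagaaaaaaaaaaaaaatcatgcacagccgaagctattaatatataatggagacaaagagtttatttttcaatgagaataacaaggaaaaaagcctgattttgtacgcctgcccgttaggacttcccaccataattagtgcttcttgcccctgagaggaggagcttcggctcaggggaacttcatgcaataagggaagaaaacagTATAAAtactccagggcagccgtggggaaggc
The letters TATAAA begin 143 bases before the start of Col11a2 and 32 bases before that of Col10a1, and are not in the Matn3 window. They are in the same window of 12.4% of 32851 promoters. The SOX-type letters AACAAT, or ATTGTT on the other strand, are in 9.42% of promoters and in none of the windows printed here.

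Among the genes of the rule, Snorc, a small cartilage proteoglycan, stood at 6573, 6238 and 3705 CPM in chondrocytes of libraries 1, 2 and 3. Col11a2, a collagen XI chain, stood at 3559, 2114 and 1927 CPM, and Col9a1, a collagen IX chain, at 3126, 1846 and 1179 CPM. Cnmd, or chondromodulin, an inhibitor of blood vessel growth, stood at 1948, 1599.5 and 1149.5 CPM. All of these were lowest in library 3. Matn3, or matrilin 3, a linker of collagen and proteoglycan, stood at 1536, 805 and 279 CPM and had a UMI in 45.1%, 40.0% and 22.6% of members, against 98.8%, 97.5% and 86.8% for Snorc. Matn3 was thus absent from the reads of most members of each library.

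Matrix genes led the profile. Sparc, a collagen-binding matrix protein, was the highest gene, with mitochondrial, ribosomal and unnamed-model genes left out, at 47653, 55718 and 57216 CPM. Col2a1 (chr15:97975602-98004695, minus strand, GRCm38) came next at 39288, 36181 and 21472 CPM, or 32314 ± 9517 (SD, n = 3), and stood at 1176, 327 and 89.2 CPM in B lineage cells. Both were far above that background in each library. The 30 highest genes also held Mgp, an inhibitor of calcification (6373 ± 1099.6 CPM), Cytl1, a small secreted protein of cartilage (5814 ± 664), Comp, a collagen-binding matrix protein (4837 ± 757), Chad, a leucine-rich adhesion protein (4120.1 ± 1044), Acan (3055 ± 758) and Ucma, a protein of upper growth cartilage (2295 ± 412).

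Type I collagen varied most between libraries among these leading genes. Col1a1 stood at 4895, 10019 and 30280.0 CPM and Col1a2 at 4565, 8211 and 25791 CPM, both lowest in library 1 and highest in library 3. In B lineage cells Col1a1 stood at 330.0, 1259 and 3416 CPM, in the same order. It had a UMI in 27.9%, 51.7% and 67.9% of chondrocytes and 14.1%, 32.9% and 61.9% of B lineage cells. The fibroblast and tendon markers summed to 5571, 10522 and 32131 CPM in chondrocytes. The part of other cells' RNA in these values was not tested.

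**Figure D1:**
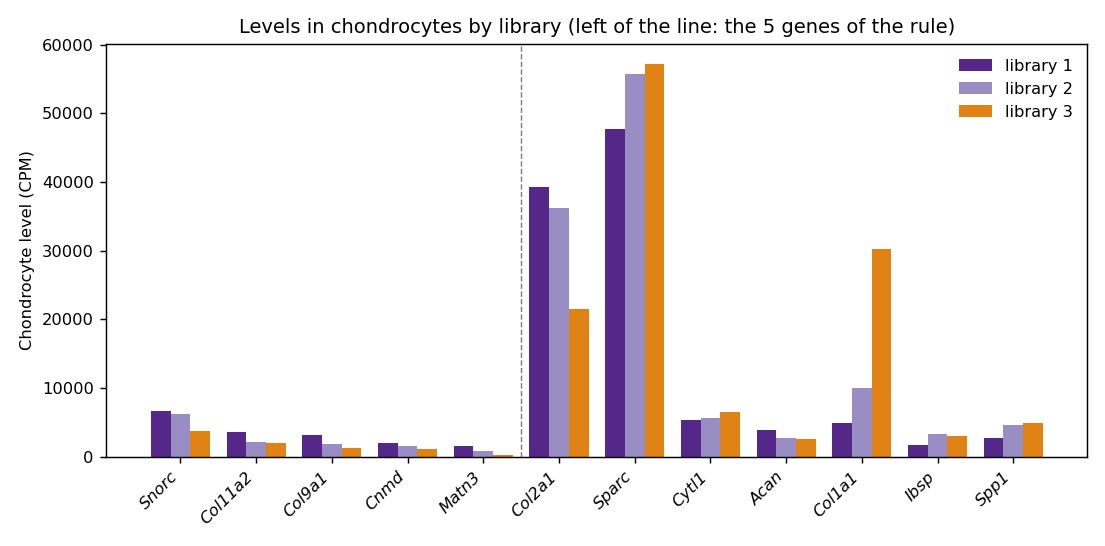
Level in chondrocytes (CPM, 1 bar per library) of the 5 genes of the rule, left of the dashed line, and of 7 other genes. The rule genes are lowest in library 3, while Col1a1 stands at 4895, 10019 and 30280.0 CPM in libraries 1, 2 and 3.

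Clustering split the 999 members without other cells' genes into 10 groups, described without a test because the same counts made them. Matn3 divided them. It stood at 2737, 1192, 1717, 2935 and 2739.8 CPM in groups 3, 4, 8, 9 and 10, at 165 CPM in group 5, and at 7.79, 5.50, 9.78 and 13.0 CPM in groups 1, 2, 6 and 7. Col11a2 was split in the same way but less widely, from 3377 to 5686 CPM in the 5 groups rich in Matn3 and from 688 to 2380.2 CPM in the others. Sox9 had a narrower range, from 428 CPM in group 7 to 1325 CPM in group 6, and Acan ran from 1738 CPM in group 7 to 4963 CPM in group 10. Col2a1 ran from 9496 CPM in group 1 to 68061 CPM in group 7. Every group thus held the core cartilage genes.

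Groups with little Matn3 had matrix and signalling genes of other kinds. Group 1 (149, 24 and 10 cells in libraries 1, 2 and 3) was led by versican, Vcan (3632 CPM), Cilp, a protein of the cartilage interterritorial matrix (5679.9 CPM), and the Wnt antagonist Sfrp5 (2107 CPM). Group 5 (77, 29 and 5 cells) was led by the BMP antagonist Grem1 (1221 CPM) and elastin, Eln (806 CPM). Group 6 (50, 21 and 5 cells) was led by the stress-induced keratin Krt16 (700.2 CPM) and had the NF-kB inhibitor Nfkbia at 858 CPM. Cytl1 stood at 17761, 15584 and 15471 CPM in groups 1, 5 and 6 and reached 3447 CPM in group 7, the next highest. These 3 groups thus shared a high level of Cytl1.

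Group 2 (108, 31 and 4 cells) was led by the mineralisation genes Ibsp (17424 CPM) and Alpl (3135 CPM), with the Wnt antagonist Frzb at 724 CPM and Col1a1 at 35.8 CPM. It had bone matrix genes without type I collagen at a high level. Group 7 (37, 22 and 7 cells) was the reverse, with Ibsp at 986 CPM, Col1a1 at 62399 CPM, Col3a1 at 3556 CPM and the tendon gene Tnmd at 623 CPM. Groups 2 and 7 had top Scrublet scores in 13.3% and 15.2% of their cells.

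Groups rich in Matn3 differed in growth and maturation genes. Group 3 (110, 29 and 4 cells) had the secreted phospholipase Pla2g5 at 291 CPM and the BMP family member Gdf10 at 163 CPM. Group 4 (79, 32 and 6 cells) had matrilin 4, Matn4, at 392 CPM and Dlk1, a membrane protein of immature cells, at 368 CPM. Group 8 (46, 13 and 2 cells) carried the hypertrophy genes, with Col10a1 at 11038 CPM, Pth1r, the receptor of parathyroid hormone-related protein, at 2381 CPM, Ihh at 752 CPM and the channel gene Panx3 at 468 CPM. Group 9 (43, 9 and 2 cells) carried cell cycle genes, with Top2a at 606 CPM and Mki67 at 517 CPM. Group 10 (39, 6 and 0 cells) carried the metallothionein Mt1 at 3858 CPM. Median depth ran from 4473 UMIs in group 2 to 21159 in group 8, and top Scrublet scores fell on 26.2% of group 8 and 27.8% of group 9.

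**Figure D2:**
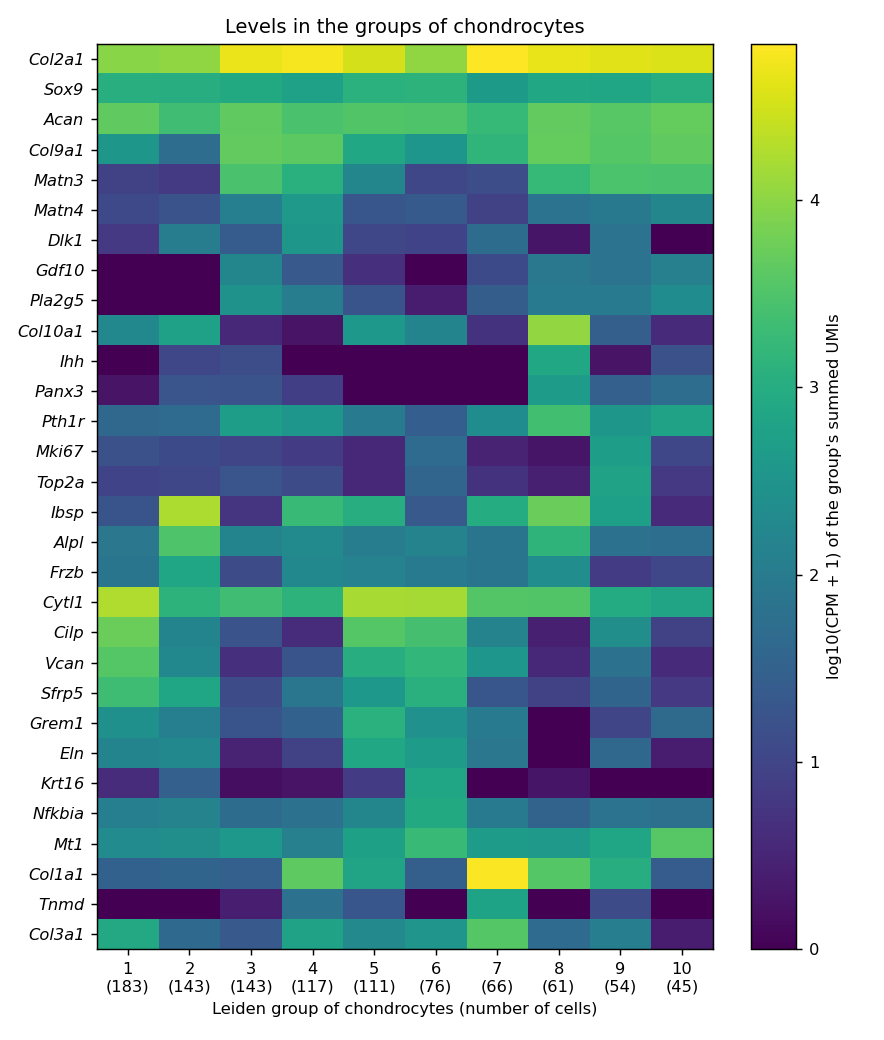
Levels of 30 genes (rows) in the 10 groups of 999 chondrocytes (columns, with cell numbers), as log10(CPM + 1) of each group's summed UMIs. Matn3 is high in groups 3, 4, 8, 9 and 10, Cytl1 in groups 1, 5 and 6, Ibsp in group 2, Col10a1 in group 8 and Col1a1 in group 7.

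Genes of maturation and of the cell cycle were also read cell by cell. Pth1r had a UMI in 56.3%, 58.3% and 69.8% of chondrocytes of libraries 1, 2 and 3, against 4.07%, 2.32% and 3.89% of B lineage cells. Col10a1 had a UMI in 17.4%, 11.2% and 17.0%, against 3.91%, 0.348% and 0.603% of B lineage cells, and Ihh in 7.24%, 8.75% and 1.89%, against 0.782%, 0.348% and 0.439%. At least 2 of Ihh, Col10a1, Pth1r and Panx3 were found in 17.7%, 15.8% and 15.1% of chondrocytes, and in 8.67%, 8.15% and 5.77% after thinning to 2000 UMIs, which left 738, 233 and 52 cells. The same thinned share was 0.375%, 0.123% and 0.378% of B lineage cells. In osteoblast lineage cells the share was 34.5%, 31.9% and 34.4%, and 24.0%, 8.16% and 6.35% after thinning, so the class was not particular to chondrocytes. At least 2 of 12 cell cycle genes were found in 29.6%, 32.5% and 22.6% of chondrocytes, and in 12.5%, 9.44% and 13.5% after thinning. The thinned share was 56.7%, 56.5% and 59.1% of B lineage cells, 12%, 7.35% and 11.4% of osteoblast lineage cells and, in libraries 1 and 2, 12.1% and 10.0% of NP cells. The chondrocyte share was thus far below that of B lineage cells and close to those of the other 2 sets, and the part of free RNA in it was not tested. The 95% counting intervals of the 3 libraries overlapped for both classes before thinning.

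The chondrocytes were first set against NP cells, the notochord-derived cells that carry the Shh lineage mark. NP cells had at least 3 of Krt8, Krt18, Krt19 and T, at least 1% mitochondrial UMIs, no Ptprc and fewer than 3 of the 5 chondrocyte genes. Library 1 held 76 and library 2 held 102, while library 3 held 9, below the minimum of 10, so the comparison rests on 2 libraries. UMIs were summed per library and set. The fit on 2 libraries leaves 1 residual degree of freedom. Its p-values, here and in the next paragraphs on NP cells, thus lean on the spread over all genes together. Of 10515 genes outside the rules, 849 were higher (8.07%) and 846 lower (8.05%) in chondrocytes by edgeR's quasi-likelihood test at a Benjamini-Hochberg adjusted p under 0.05. Since the gates picked the cells on cartilage and NP genes, counts, levels and p-values of such genes here and below describe the chosen cells.

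Cartilage matrix stood far above the NP. All 6 tested cartilage collagens outside the rule were higher, with a median log2 fold change of 6.59 against 0.02 over all genes. Col2a1 stood at 39288 and 36181 CPM against 704 and 1210.0 CPM in NP cells (log2 fold change 5.43 ± 0.46 SE, edgeR adjusted p = 0.000109). Comp stood at 5447 and 5074 CPM against 9.79 and 3.70 CPM (9.78 ± 0.56, edgeR adjusted p = 2.81e-05). Both genes were higher in chondrocytes in each of the 2 libraries, and their p-values lean on the spread over all genes together. All 11 tested matrilin and related matrix genes and 10 of 12 proteoglycan genes were higher, the exceptions being Acan and Fmod. Acan stood at 3929.6 and 2639 CPM against 4553 and 6934 CPM, a log2 difference of -0.73 ± 0.38 that did not pass (edgeR adjusted p = 0.259).

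Regulators and signals differed as well. Of 15 chondrogenic transcription factors 12 were higher and none lower. Sox9 stood at 905 and 688 CPM against 352 and 340.2 CPM (1.26 ± 0.30, edgeR adjusted p = 0.0218), Sox5 rose by 2.03 ± 0.34 and Mef2c, a driver of hypertrophy, by 3.13 ± 0.36 on the log2 scale, while Sox6, Trps1 and Zbtb20 did not pass. Of 12 hedgehog genes 6 were higher, including the transducer Smo (107 and 109 CPM against 15.4 and 14.8 CPM), the receptor Ptch1 (169 and 134 CPM against 39.2 and 8.32 CPM) and the ligand-binding Hhip (308 and 158 CPM against 6.99 and 0 CPM). Of 23 growth factor genes 15 were higher, among them Fgfr3, a receptor that limits cartilage growth (224 and 131 CPM against 44.8 and 37.0 CPM), and the Wnt inhibitor Wif1 (656 and 718 CPM against 30.8 and 0 CPM). The share called was above the 8.07% of all genes in each of these lists.

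Most collagen folding genes were higher than in NP cells, and glycolysis genes were more often lower. Of 24 collagen folding and secretory genes 15 were higher and 1 lower, with the collagen chaperone Serpinh1 at 1858 and 1761 CPM against 294 and 271 CPM and the lysyl hydroxylase Plod2 at 1176 and 860.4 CPM against 152 and 198 CPM. Of 21 glycosaminoglycan synthesis genes 10 were higher and 1 lower. Of 20 glycolysis and hypoxia genes 9 were lower and 2 higher, with a median of -0.99. The glucose transporter Slc2a1 stood at 113 and 67.7 CPM against 279.7 and 301 CPM (-1.65 ± 0.31, edgeR adjusted p = 0.00722), and Pgk1 at 325 and 307 CPM against 857 and 801 CPM. Spp1, or osteopontin, was also lower, at 2748 and 4575 CPM against 11321 and 14263 CPM, while 7 of 11 hypertrophy genes were higher. Of 12 cell cycle genes 6 were higher and none lower. The share of cells with at least 2 of them was 29.6% and 32.5% against 43.4% and 28.4% in NP cells. After thinning it was close, at 12.5% and 9.44% against 12.1% and 10.0%.

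The largest differences included genes read in only one of the sets. H19, an imprinted non-coding RNA of growing tissue (chr7:142575529-142578143, minus strand, GRCm38), stood at 504 and 390.4 CPM in chondrocytes of libraries 1 and 2 with 0 UMIs in NP cells, at least 284-fold higher against a floor of 3 UMIs over the NP sum. On the same floor the chemokine Cxcl14 was at least 84.9-fold and Pax1, a sclerotome transcription factor, at least 61.4-fold higher. These 3 and the other 9 genes named for the largest rise were not called by DESeq2. Lower in chondrocytes were the carbonic anhydrase Car3 (13.1 and 37.1 CPM against 11485 and 16482 CPM, -9.21 ± 0.54, edgeR adjusted p = 2.81e-05) and the BMP and Wnt antagonist Sostdc1 (2.34 and 0.323 CPM against 732 and 1472 CPM). The NP sum of library 1 also held neutrophil markers at 10202 CPM, against 2358 CPM in its chondrocytes. That of library 2 held erythroid markers at 10700.3 CPM, against 2919.6 CPM in its chondrocytes. The part of both in the differences was not tested.

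**Figure D3:**
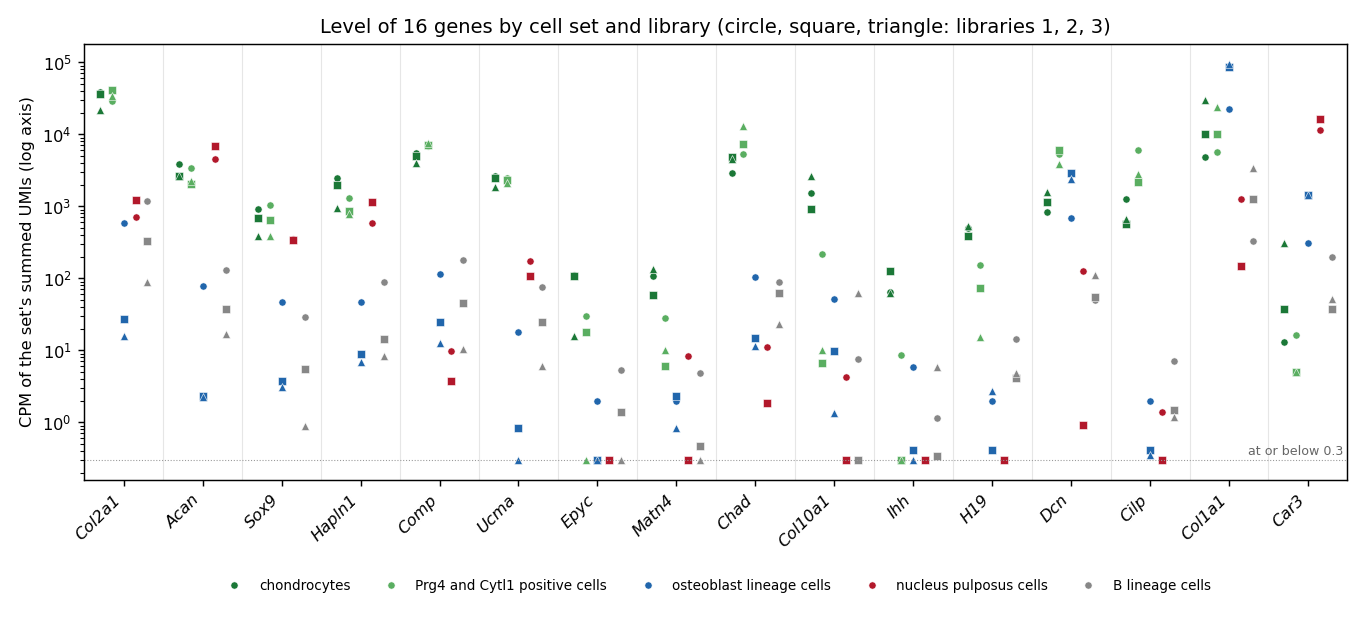
CPM on a log axis of 16 genes (horizontal axis) in 5 cell sets (colours), 1 point per library (shapes), with values under 0.3 drawn at 0.3 and the 9 NP cells of library 3 left out. Col2a1 and Comp lie high in both cartilage sets, Acan lies at 4553 and 6934 CPM in NP cells, and Car3 lies highest there.

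The nearest neighbours of the chondrocytes were cells with at least 2 UMIs of Prg4, the gene of the joint lubricant lubricin, and 1 of Cytl1. They had no Ptprc and fewer than 2 of the 4 NP genes. There were 203, 123 and 13 in libraries 1, 2 and 3, and 188, 114 and 12 of them had at least 3 of the 5 chondrocyte genes. Of 10020 genes, 373 were higher (3.72%) and 563 lower (5.62%) in chondrocytes by edgeR's quasi-likelihood test after adjustment by Benjamini-Hochberg. The total of 936 depended on the libraries, with 218 called without library 1, 315 without library 2 and 1326 without library 3. Without the replicate block, which pairs the sums of a library, it was 155.

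Hypertrophy genes were higher in the chondrocytes. Of 11 tested, 8 were higher and none lower, with a median log2 fold change of 3.22 against 0.00 over all genes. Ibsp, bone sialoprotein, stood at 1712, 3244 and 3008 CPM against 89.7, 189 and 264 CPM (3.85 ± 0.18, edgeR adjusted p = 1.4e-06). Alpl, a phosphatase of mineralising tissue, stood at 446, 477 and 183 CPM against 32.9, 31.6 and 20.3 CPM (3.65 ± 0.17). Each of these genes was higher in chondrocytes in every library. Both belong, with Sp7, to the 5 osteoblast lineage markers, which summed to 2300.5, 4106 and 5324 CPM in chondrocytes and 175, 236 and 309 CPM in the other set, and the part of osteoblast lineage RNA in these values was not tested. Col10a1 stood at 1512, 906 and 2604 CPM against 218, 6.66 and 10.1 CPM, and lost its call without the replicate block. Ihh stood at 65.2, 127 and 63.2 CPM against 8.54, 0 and 0 CPM, and lost its call in DESeq2, as did Panx3. Mmp13, Spp1 and Vegfa did not pass. Bglap, or osteocalcin, stood at 47.6, 289 and 2048 CPM against 30.8, 8.32 and 20.3 CPM, and 7 of 11 alternatives lost its call.

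Collagens and proteoglycans did not move together. Of 6 collagens 5 were higher, such as Col9a3 (3766, 3873 and 1500.5 CPM against 852, 721 and 355 CPM, 2.09 ± 0.14), whereas Col2a1 did not pass (32314 ± 9517 against 34536 ± 5924 CPM, SD, n = 3; log2 -0.26 ± 0.19). Of 12 proteoglycan genes 5 were higher (Lum, Epyc, Omd, Hapln1 and Hspg2) and 6 lower (Dcn, Vcan, Prelp, Chad, Fmod and Bgn). Decorin, Dcn, a small proteoglycan of fibrous matrix, stood at 822, 1130.1 and 1595 CPM against 5302, 5966 and 3891 CPM (-2.27 ± 0.23, edgeR adjusted p = 0.000174). Cilp stood at 1275, 564 and 672 CPM against 6090.5, 2208 and 2775 CPM (-2.23 ± 0.14). Both were lower in chondrocytes in each library. Of 10 matrilin and related genes 6 were lower, while Mia and Matn4 were higher, by 2.44 ± 0.17 and 2.31 ± 0.24.

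Of 15 transcription factors, Runx3, Runx2, Foxa2, Mef2c and Dlx5, which act in chondrocyte or bone maturation, were higher in chondrocytes, and Pax9, Pax1, Barx1 and Zbtb20 were lower. Runx3 stood at 93.0, 69.7 and 49.1 CPM against 9.40, 2.22 and 5.07 CPM (3.61 ± 0.27, edgeR adjusted p = 3.58e-05). Sox9 did not pass (658 ± 263 against 688 ± 332 CPM, log2 -0.17 ± 0.14). Of 8 resting zone genes Gas1, Clu, Grem1 and Apoe were lower and Efemp1 was higher. Gas1, a surface protein of growth-arrested cells, stood at 369.7, 427 and 493 CPM against 1684, 1493 and 1426 CPM. Of 25 growth factor genes 6 were higher and 8 lower, and of 12 hedgehog genes 3 were higher, Ptch1 among them by 1.62 ± 0.21, and 3 lower. Outside the lists, the sphingomyelinase Smpd3 was higher (306, 197 and 389.6 CPM against 45.3, 7.21 and 25.4 CPM), and Abi3bp, a matrix protein, was lower (476, 338 and 618 CPM against 1743, 1306 and 2039.6 CPM).

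**Figure D4:**
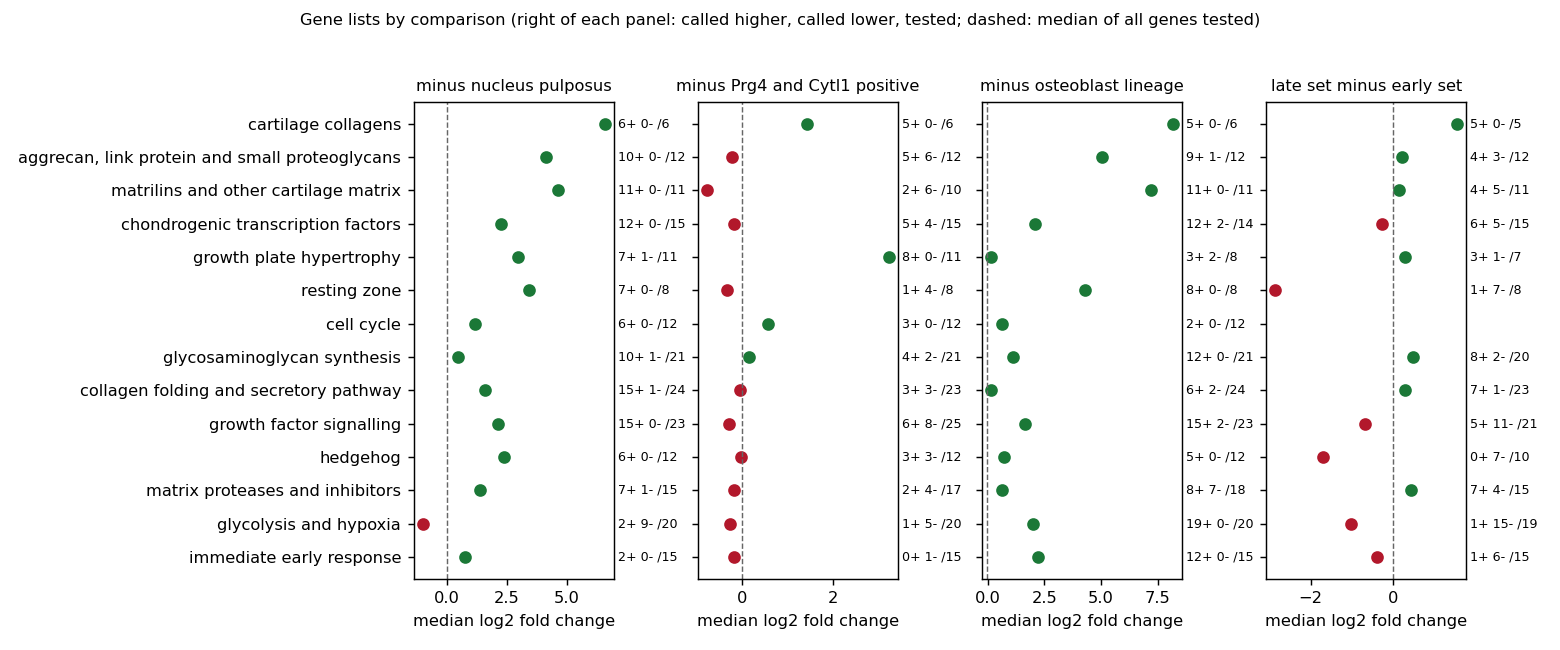
Median log2 fold change (horizontal axis, points) of the genes of 14 lists (rows) in the 4 comparisons (panels), outside the rule genes and with genes at 0 UMIs in a set taken at their bound, with counts called higher and lower of those tested. Cartilage collagens stand at 6.59 against NP cells and 8.18 against osteoblast lineage cells, hypertrophy at 3.22 against Prg4 and Cytl1 positive cells, and the resting zone at -2.85 in the late set against the early set.

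The chondrocytes were also set against osteoblast lineage cells, which had at least 3 of Ibsp, Sp7, Bglap, Runx2 and Alpl and numbered 58, 248 and 747 in libraries 1, 2 and 3. Of 11375 genes, 1410 were higher (12.4%) and 1090 lower (9.58%) in chondrocytes by edgeR's quasi-likelihood test after adjustment by Benjamini-Hochberg. Without library 2 the total was 1561 in place of 2500. The osteoblast set held the marrow stroma markers Cxcl12, Lepr, Kitl, Adipoq and Il7 at a sum of 1744, 743 and 609 CPM, against 23.6, 11.6 and 31.6 CPM in chondrocytes, where Adipoq was at 0. Their part in the differences was not tested.

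The gates split the sets on chondrocyte genes, so the levels and p-values of other cartilage genes describe the chosen cells. All 11 tested matrilin and related genes and all 8 resting zone genes were higher in chondrocytes. Acan stood at 3929.6, 2639 and 2596 CPM against 78.8, 2.29 and 2.24 CPM (8.67 ± 0.97, edgeR adjusted p = 0.000417) and Sox9 at 905, 688 and 381 CPM against 47.3, 3.75 and 3.08 CPM (6.27 ± 0.56, edgeR adjusted p = 0.000135). Of 14 transcription factors 12 were higher, and Dlx5 and Mef2c were lower. Barx1, a homeobox factor, stood at 38.2, 67.4 and 93.0 CPM with 0 UMIs in osteoblast lineage cells, at least 315-fold higher. Col11a1 did not pass (4124 ± 1325 against 1464 ± 748 CPM, SD, n = 3). Lumican, Lum, was lower, at 181, 247 and 314 CPM against 1132, 1629.5 and 1464 CPM.

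Hypertrophy genes divided against bone. Of 8 tested, Ihh, Col10a1 and Vegfa were higher in chondrocytes, Mmp13 and Spp1 were lower, and Panx3, Ptch1 and Pth1r did not pass. Mmp13, a collagenase, stood at 20.5, 44.2 and 19.3 CPM against 6564, 876 and 722 CPM, and Mmp9, a gelatinase that osteoclasts also make, at 4.33, 2.26 and 1.75 CPM against 496, 244 and 90.1 CPM. Of 18 proteases and inhibitors 8 were higher and 7 lower.

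Energy and early response genes stood higher than in osteoblast lineage cells. Of 20 glycolysis and hypoxia genes 19 were higher and none lower, with a median of 2.02 against -0.01 over all genes. Pgk1 stood at 325, 307 and 318 CPM against 92.5, 53.4 and 73.2 CPM (2.15 ± 0.21, edgeR adjusted p = 0.000225) and Slc2a1 at 113, 67.7 and 63.2 CPM against 19.7, 1.46 and 1.47 CPM. Of 15 immediate early genes, which also respond to tissue dissociation, 12 were higher, with Fos at 3644, 5121 and 1948 CPM against 1229, 292 and 136 CPM. Of 21 glycosaminoglycan synthesis genes 12 were higher and none lower, and of 24 collagen folding genes 6 were higher and 2 lower.

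Within the chondrocytes, 137, 38 and 8 cells of libraries 1, 2 and 3 had at least 2 of Ihh, Col10a1, Pth1r and Panx3 (the late set). Another 225, 63 and 11 had none of them and fewer than 2 cell cycle genes (the early set). The names late and early refer to these genes only, and a stage of maturation was not tested. The late set of library 3 was below the minimum of 10 cells, so libraries 1 and 2 were compared. Late cells were deeper, with medians of 16726 and 19877.5 UMIs against 4190 and 6179, and 53 and 16 of them also had at least 2 cell cycle genes. Of 7985 genes outside the rules, 1138 were higher (14.3%) and 1139 lower (14.3%) in the late set by edgeR's quasi-likelihood test after adjustment by Benjamini-Hochberg. Of cell cycle genes only the 12 listed were left out, so any others stay in these counts. With 4 sums and 1 residual degree of freedom the spread comes almost wholly from all genes together, so SEs are given and single p-values are not. DESeq2 called 466 genes, the fit without the replicate block 970, the fit that added the 8 late cells of library 3 1264, and the fit on cells of at least 5000 UMIs 1722, 1632 of them among the 2277.

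The late set of libraries 1 and 2 held more cartilage collagen RNA. All 5 tested collagens outside the rules were higher, among them Col9a3 (5829 and 6572 CPM against 989 and 1005 CPM) and Col2a1 (46299 and 31823 CPM against 16187 and 28820.0 CPM, log2 0.87 ± 0.27). In library 3, outside the comparison, Col9a3 stood at 499 against 357 CPM. The 5 chondrocyte genes, which chose the cells of both sets, summed to 23550.1, 17848 and 6562 CPM in late cells and 9895, 8371 and 7003 CPM in early cells, so library 3 went the other way. The fibroblast and tendon markers summed to 1096, 11628 and 53468 CPM in late cells and 3939, 4419 and 457 CPM in early cells, higher in the late set in libraries 2 and 3, and their part in the differences was not tested. The transcription factors Dlx5, Runx3, Runx2, Foxa2, Mef2c and Foxa3 were higher, with Runx3 at 116 and 91.0 CPM against 13.2 and 6.82 CPM, and Sox9, Sox5 and Sox6 did not pass. Of 7 other hypertrophy genes Spp1, Mmp13 and Sp7 were higher, Vegfa was lower, and Ibsp, Alpl and Ptch1 did not pass, with Alpl at 699.6 and 924 CPM against 979.8 and 621 CPM. Ppa1, a pyrophosphatase, stood at 4799.7 and 5496 CPM against 89.8 and 81.9 CPM and the ion pump regulator Fxyd2 at 2092 and 2143 CPM against 28.0 and 29.6 CPM, while in the late set of library 3 they stood at 204 and 863 CPM.

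Resting zone genes were lower in the late set. Of 8, 7 were lower and Thbs3 was higher, with a median of -2.85 against -0.01 over all genes. Apoe, a lipid carrier, stood at 807 and 581 CPM against 10147 and 12883 CPM (-4.01 ± 0.25). Pthlh, the hormone that holds back hypertrophy, stood at 5.24 and 2.53 CPM against 56.9 and 84.1 CPM (-3.76 ± 0.38), and Sfrp5 at 118 and 72.0 CPM against 1199.8 and 573 CPM. In library 3 the late and early levels were 1483 and 13677 CPM for Apoe and 265 and 1501 CPM for Gas1, the same direction. Prg4 and Cytl1 summed to 3111, 3472 and 4344 CPM in late cells and 12593, 11703 and 17636 CPM in early cells. Gas1, Clu, Grem1 and Apoe were also lower in chondrocytes than in Prg4 and Cytl1 positive cells. Efemp1 was higher there, and Pthlh and Sfrp5 did not pass. The part of cells like that set in these differences was not tested. Of 10 hedgehog genes 7 were lower and none higher, with Hhip at 119 and 61.9 CPM against 597 and 300.2 CPM, while Gli3, Ptch1 and Sufu did not pass. Gas1 is counted in both of these lists.

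Other programmes divided the late from the early cells. Of 19 glycolysis and hypoxia genes 15 were lower and 1 higher, with Slc2a1 at 87.8 and 49.3 CPM against 259 and 127 CPM. Of 21 growth factor genes 11 were lower, such as Fgfr2 (-2.56 ± 0.20), and 5 higher, such as Fgfr3 (0.88 ± 0.19) and Bmp2 (1.37 ± 0.21). The lower ones include Sfrp5 and Grem1, which the resting zone list also holds. Elastin, Eln, stood at 44.1 and 27.8 CPM against 418 and 453 CPM. In library 3 Eln did not follow, at 53.0 CPM in the late and 42.9 CPM in the early set. Of 20 glycosaminoglycan synthesis genes 8 were higher and 2 lower, and of 23 collagen folding genes 7 were higher and 1 lower.

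**Figure D5:**
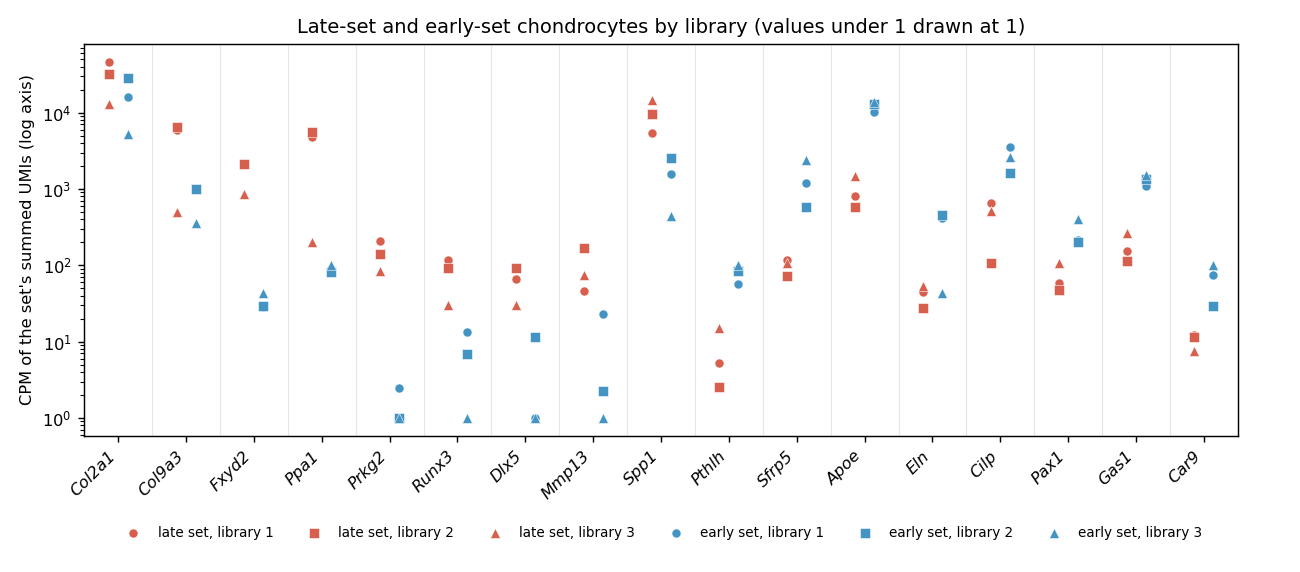
CPM on a log axis of 17 genes (horizontal axis) in late-set (red) and early-set (blue) chondrocytes, 1 point per library (shapes), with values under 1 drawn at 1 and library 3 shown but not tested. Late cells of libraries 1 and 2 lie above early cells for the genes from Col2a1 to Spp1 and below them for those from Pthlh to Car9, and Eln of library 3 lies at 53.0 against 42.9 CPM.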

How the data were processed

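The 3 deposited matrices hold whole UMI counts per gene and barcode without normalization, per the file headers and their values. The submitters' processing notes name Cell Ranger 3.0.2, Seurat 4 and mm10, while the matrix headers name version 3.0.1 for library 1 and 6.0.0 for libraries 2 and 3. The libraries held 64695292, 145925353 and 137188648 UMIs on 7430, 11767 and 11032 barcodes. They listed 31053, 32285 and 32285 genes, so library 1 was counted on another gene annotation. The 30406 gene IDs common to them were used, and 597 of these had another symbol in library 1. Members, lists and tests were chosen with earlier results of these data known. Counts were summed per library and cell set, with at least 10 cells per sum, and tested with edgeR 4.0.16 in R 4.3.3 (filterByExpr, TMM, quasi-likelihood, Benjamini-Hochberg). The library was a replicate block because both sums come from the same pool. Genes of either set's rule, for late and early cells the chondrocyte rule too, were left out of counts, and the SE is the log2 fold change over the square root of F. CPM come from 3' ends and are not per length, so they compare cells and not genes. A p-value rests on the spread between pools, and in the fits on 2 libraries it leans on that spread over all genes together. The genes named by rule were the 12 highest and 12 lowest log2 fold changes called with 1 direction in every library at 50 CPM or more in the higher sum, members of the 14 lists and the 30 highest genes. Some genes belong to more than 1 list, such as Gas1, Grem1 and Sfrp5. The groups were found with leidenalg 0.10.2 (Leiden resolution 1.0, 1500 variable genes, 15 principal components, 15 neighbours). Gene values were scaled within each library before that. Doublets were scored with Scrublet in Scanpy 1.11.5 and not removed. A member carried other cells' RNA at 1% of UMIs from neutrophil or erythroid markers, 0.2% from promyelocyte or osteocalcin genes, or 2 B lineage, macrophage or endothelial genes. The fits were also run on simulated counts with the same dispersion for every gene and no library effect. That run checks the code and not the calls on these data. Alternatives were DESeq2 1.42.0, no filter, no block, each library left out and other cell rules.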

Additional observations from a re-analysis of the deposited data

How the results depend on the processing

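Against NP cells, DESeq2 called 924 genes in place of 1695, and dropping the minimum of mitochondrial UMIs from the NP rule gave 2698, 1774 of them higher, with the median of all genes at 0.24. Against Prg4 and Cytl1 positive cells, DESeq2 called 448 in place of 936, and removing the highest Scrublet scores gave 1582. Without the replicate block that pairs the sums of a library, the number there was 155, against NP cells 1463, against osteoblast lineage cells 2286, and between late and early cells 970 in place of 2277. Between late and early cells DESeq2 called 466, a rule of at least 4 chondrocyte genes gave 1350, and at least 5 cells per sum, chosen after seeing the data as was leaving out members with other cells' RNA, gave 1264. Leaving out each library in turn gave 218 to 1326 against Prg4 and Cytl1 positive cells and 1561 to 2977 in place of 2500 against osteoblast lineage cells. The higher share of calls against Prg4 and Cytl1 positive cells was 39.9%, and it was 57.4% without the block and 59.6% without library 1. Leaving out a library was not possible in the comparisons that rest on 2 libraries, since no residual degree of freedom is left. Without members that carried other cells' RNA the 4 counts were 2210, 705, 2398 and 2142. The cause of these changes was not tested. Of the named genes' values under alternatives, 12 against NP cells, 13 against Prg4 and Cytl1 positive cells and 4 between late and early cells fell short of the threshold in the same direction, and none changed sign. The 53 chondrocytes of library 3 limit every value that includes it.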

Other observations

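H19 and Igf2, neighbouring imprinted genes, differed in how they varied between libraries. H19 stood at 504, 390.4 and 539 CPM in chondrocytes of libraries 1, 2 and 3, while Igf2, a growth factor, stood at 1.29, 90.0 and 73.7 CPM, near 0 in library 1 alone. In Prg4 and Cytl1 positive cells H19 stood at 151, 74.3 and 15.2 CPM and Igf2 at 0, 34.4 and 30.4 CPM, with Igf2 again lowest in library 1. The libraries differ in pool and batch. Library 1 was also counted with another Cell Ranger version and lists 31053 genes, against 32285 in libraries 2 and 3. These differences cannot be told apart here, and their part in the Igf2 values was not tested. Serpina1b, an alpha-1-antitrypsin gene with close copies whose reads may be shared, stood at 750.2, 1413 and 1123 CPM in chondrocytes, at 385, 198 and 809.8 CPM in the late set and at 2214, 2579 and 7103 CPM in the early set, against 3.94, 0.208 and 0 CPM in osteoblast lineage cells. Slurp1, a small secreted protein best known from skin, stood at 387, 216 and 339 CPM in chondrocytes and at 1584, 758 and 741 CPM in Prg4 and Cytl1 positive cells. These genes were chosen after their values were seen.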
